A study of Macaca mulatta with 30 samples.

Results

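Immediate early genes were followed in whole fetal lung and in fetal hippocampus of the Rhesus macaque after the mother was treated with betamethasone or saline. The set held 10 genes chosen by name, FOS, FOSB, JUN, JUNB, EGR1, EGR3, NR4A1, ARC, NPAS4 and IER2, and a member was any row of the count tables whose Ensembl rhesus identifier carries that symbol. Of the 10 genes, 5 were found among 30246 identifiers in lung, namely FOSB (ENSMMUG00000014430), JUNB (ENSMMUG00000005688), NR4A1 (ENSMMUG00000022922), ARC (ENSMMUG00000018519) and NPAS4 (ENSMMUG00000015982). The same 5 genes and FOS (ENSMMUG00000040100) were found among 32386 identifiers in hippocampus. JUN, EGR1, EGR3 and IER2 were matched in neither tissue and FOS was not matched in lung, and these are not analysed here. Every matched member passed the filter on low counts (a gene needed 7 reads in 3 or more libraries of lung, or in 5 or more of hippocampus), so none was lost to it.

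Immediate early genes are transcribed within minutes of a stimulus by factors that the cell already holds, such as SRF with its ELK partners and CREB, and their transcripts and proteins are short-lived. FOS, FOSB, JUN and JUNB are subunits of the dimeric transcription factor AP-1, EGR1 and EGR3 are zinc finger transcription factors, and NR4A1 is an orphan nuclear receptor. ARC, a protein of the synapse, and NPAS4, a transcription factor of neurons, are best known as genes induced by neuronal activity, and the glucocorticoid receptor that betamethasone activates is known to restrain AP-1.

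Lung RNA came from 15 wild type fetuses, 3 in each of 5 groups, all labelled gestational day 124 to 130. Dams had been given saline, 0.25 mg/kg of the clinical drug with delivery after 4 h or 5 days, or 0.125 mg/kg of Beta-Ac with delivery after 6 h or 5 days. The clinical drug is an equal mixture of betamethasone phosphate and betamethasone acetate, Beta-Ac is the acetate alone, and all were intramuscular injections to the dam. The lung labels give no delivery interval for controls, and the hippocampus labels of those same 3 animals give 5 days, so the early groups have no control labelled at 4 to 6 h. The study describes pressure-volume measurements for fetuses treated 5 days before delivery and mentions only freezing of lung for the early ones, so lung handling and the interval since treatment cannot be told apart between 4 h or 6 h and 5 days. Library titles also differ, since clinical 4 h lungs are titled 15-81, 15-85 and 15-97 and clinical 5-day lungs 16-115, 16-120 and 16-126. What the prefix stands for is not given, and it cannot be told apart from the interval between these groups.

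Hippocampus RNA came from 15 fetuses at 130 to 136 days of gestation, 5 in each of the groups named CTL, BAC and CEL in the library names, all delivered at 5 days. The treatment fields of these samples conflict with the names. BAC libraries are labelled there as the mixture at 0.25 mg/kg and CEL libraries as the acetate at 0.125 mg/kg, while the lung labels of the same animals give the reverse. Groups are therefore called CTL, BAC and CEL, and no drug is assigned to BAC or CEL. Replicates 1 to 3 of CTL, BAC and CEL are the same animals as replicates 1 to 3 of lung saline, Beta-Ac 5 days and clinical 5 days. Their ages also conflict, since the hippocampus labels of these 9 animals give 131 to 136 days and the lung labels 124 to 130. Each library is from a different fetus within a tissue, and RNA is from whole tissue, so fewer cells of a type and less RNA per cell cannot be told apart.

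Reads counted on genes ranged from 14.1 M to 45 M in lung, where clinical 4 h replicate 1 was the deepest, and from 18.3 M to 29.3 M in hippocampus. Surfactant and alveolar markers (SFTPC, SFTPB, NKX2-1 and AGER) summed to between 6830 and 17800 CPM in lung and to between 4.91 and 10.3 CPM in hippocampus, and neuron markers to between 3510 and 6250 CPM in hippocampus and between 6.22 and 18.8 CPM in lung. CPM is reads per 1 M counted reads after TMM normalization. Choroid plexus markers (FOLR1 and CLIC6, the 2 of 4 listed that were matched) summed to 746 CPM in CTL replicate 5 and to at most 3.67 CPM in each of the other hippocampus libraries. As a check of the lung labels, the glucocorticoid target FKBP5 averaged 5.61 CPM in saline controls, 173 CPM at 4 h after the clinical drug, 52 CPM at 6 h after Beta-Ac, and 6.19 and 6.15 CPM at 5 days. ZBTB16 averaged 9.48, 203, 124, 13.3 and 12.1 CPM in the same groups and PER1 averaged 153, 754, 526, 178 and 174 CPM.

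Compared to saline, none of the 5 members measured in lung was called at 4 h, 6 h or 5 days. Of all tested genes 7.4% were called at 4 h after the clinical drug and 0.442% at 6 h after Beta-Ac. At 5 days 0% were called after the clinical drug and 0.00567% after Beta-Ac. Between 4 h and 5 days after the clinical drug, where 10.4% of all tested genes were called, 4 of the 5 members were. That count was 0 without either of 2 single animals and 2 with another adjustment of p. FOSB, JUNB and NR4A1 were lower at 4 h than at 5 days and ARC was higher. FOSB spread more between animals of a group than 99.7% of the genes tested in lung. In hippocampus none of the 6 members was called in any comparison. Of all tested genes 7.86% were called between CEL and CTL, and 0% between BAC and CTL and between CEL and BAC. In that tissue FOS and ARC had the smallest member p-values, both with higher means in BAC than in CTL (edgeR adjusted p = 0.294 and 0.288). There 12.3% of all tested genes had an unadjusted p under 0.05, and with sequencing run as a covariate neither gene did. A gene was called when its fold change was at least 1.5, its p under 0.05 and its adjusted p under 0.1, by Storey's q in lung and Benjamini-Hochberg in hippocampus, by edgeR's quasi-likelihood test fitted once per tissue over 17644 lung and 17390 hippocampus genes. These p-values set the difference between groups against the spread between animals of a group.

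**Figure D1:**
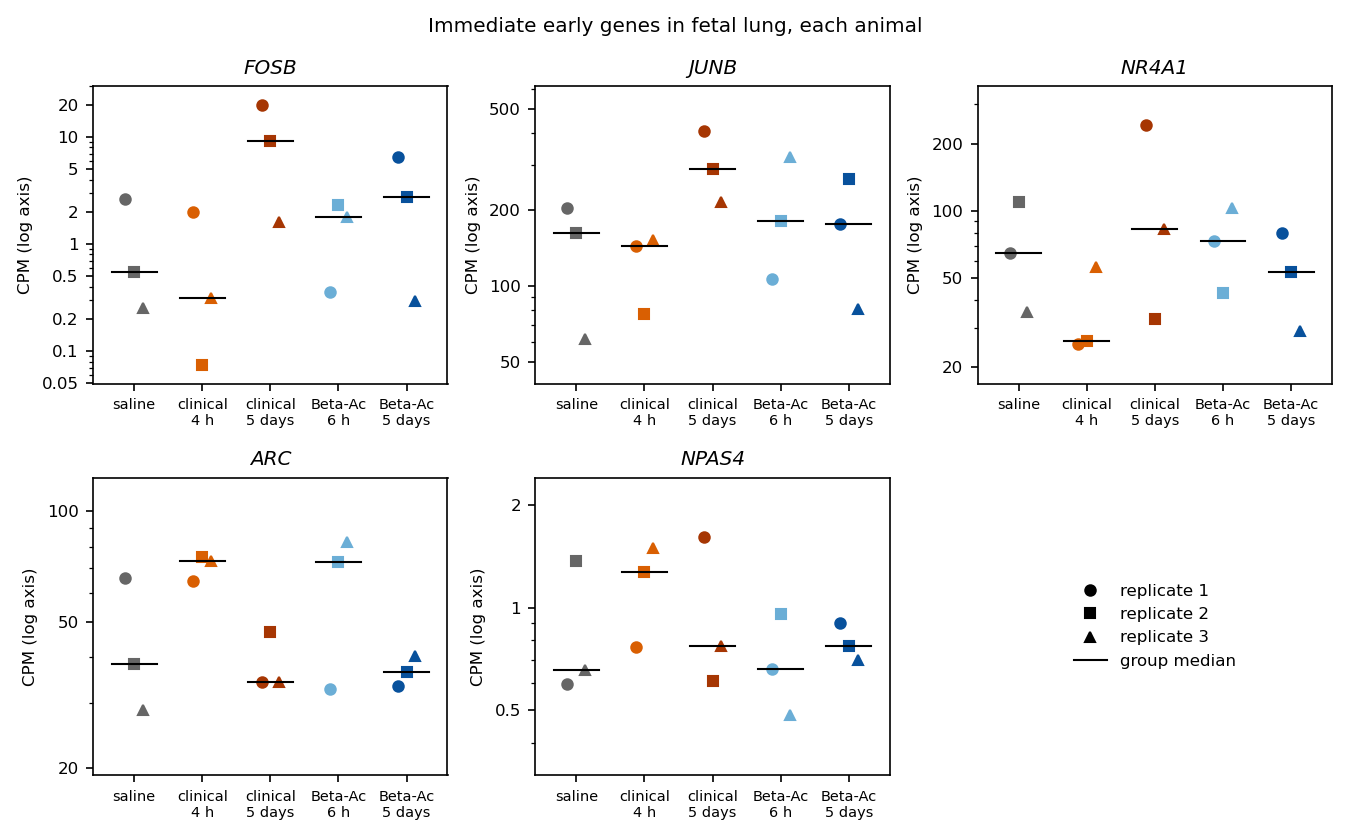
Level of the 5 immediate early genes found in lung (CPM, log axis) in each of 15 fetuses, by group. Symbols mark replicates 1 to 3 of a group, horizontal lines are group medians, and clinical 5 days replicate 1 is the highest point for FOSB, JUNB, NR4A1 and NPAS4.

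FOSB, an AP-1 subunit with a long-lasting splice form in brain, was counted at 44, 8 and 5 reads in the 3 saline lungs, or 2.62, 0.548 and 0.251 CPM. At 4 h after the clinical drug it was at 2.01, 0.0748 and 0.313 CPM, the middle value resting on 1 read. At 5 days after the clinical drug it was at 20, 9.13 and 1.61 CPM, from 433, 271 and 42 reads. The top of the saline range lay above the lowest of these 5-day animals, so those groups overlapped, and so did 4 h and 5 days. After Beta-Ac, FOSB was at 0.354, 2.3 and 1.78 CPM at 6 h and at 6.53, 2.74 and 0.295 CPM at 5 days. By group mean the order was clinical 5 days (10.2 CPM), Beta-Ac 5 days (3.19), Beta-Ac 6 h (1.48), saline (1.14) and clinical 4 h (0.801), and each neighbouring pair in that order overlapped.

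JUNB, the AP-1 subunit that often opposes JUN, was counted at 3405, 2361 and 1230 reads in saline lungs, the highest and lowest being 203 and 61.7 CPM, and was at 143, 77.3 and 152 CPM at 4 h after the clinical drug. At 5 days after the clinical drug it was at 410, 289 and 215 CPM, and every one of these animals was above every saline and every 4 h animal. Such a lack of overlap held for 12.3% of all tested genes against saline and for 29.1% between 4 h and 5 days. After Beta-Ac, JUNB was at 106, 180 and 323 CPM at 6 h and at 176, 264 and 81.1 CPM at 5 days, and both ranges overlapped that of saline. The highest JUNB value outside the clinical 5-day group was 323 CPM, in Beta-Ac 6 h replicate 3.

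NR4A1, also known as Nur77, was at 65.1, 110 and 35.5 CPM in saline lungs and at 25.4, 26.2 and 56.1 CPM at 4 h after the clinical drug. At 5 days after the clinical drug it was at 241, 32.8 and 82.6 CPM, so replicate 1 was 7.35 times replicate 2. Replicates 1 and 2 of the 4 h group were the 2 lowest of the 15 lungs, and replicate 1 of the 5-day group was the highest. After Beta-Ac it was at 73.3, 42.8 and 103 CPM at 6 h and at 79.9, 53.3 and 29 CPM at 5 days, within reach of the saline values.

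ARC, which acts in endocytosis of glutamate receptors at synapses, was at 66, 38.3 and 28.7 CPM in saline lungs. It was at 64.6, 75.1 and 73.1 CPM at 4 h after the clinical drug and at 34.3, 46.9 and 34.4 CPM at 5 days. These groups did not overlap, as was the case for 29.1% of all tested genes. After Beta-Ac it was at 32.8, 72.9 and 82.5 CPM at 6 h and at 33.4, 36.5 and 40.5 CPM at 5 days. Replicates 2 and 3 at 6 h were in the range of the clinical 4 h animals or above it, and replicate 1 was lower than every lung but saline replicate 3.

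NPAS4, a factor of the bHLH-PAS family, was near the limit of detection in lung, with between 10 and 35 reads per library. Saline lungs had 0.595, 1.37 and 0.653 CPM, clinical 4 h lungs 0.764, 1.27 and 1.5 CPM, and clinical 5-day lungs 1.61, 0.607 and 0.768 CPM. Beta-Ac lungs had 0.658, 0.955 and 0.482 CPM at 6 h and 0.899, 0.772 and 0.7 CPM at 5 days, and all 5 groups overlapped.

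The early comparisons asked what the drugs had changed at 4 h and 6 h, times that the study took from fetal sheep as those of peak fetal drug level. At 4 h after the clinical drug compared to saline, 7.4% of all tested lung genes were called and 0 of 5 members were, by edgeR or by DESeq2. By edgeR 18.7% of all tested genes and 1 member had an unadjusted p under 0.05. That member was ARC, with a mean of 70.9 CPM against 44.3 CPM and a 1.6-fold difference (95% interval from 1.01 to 2.53, edgeR q = 0.173). Without saline replicate 1, the control with the highest ARC, the ARC log2 difference was 1.07 and it was called, and it was also called, at an unaltered 0.68, without Beta-Ac 6 h replicate 1, an animal of neither group that enters the shared estimate of spread. NR4A1 had a mean of 35.9 CPM against 70.1 CPM, a log2 difference of -0.97 (95% interval from -2.31 to 0.38, edgeR q = 0.313). The intervals of FOSB (-2.9 to 2.33), JUNB (-1.25 to 0.87) and NPAS4 (-0.59 to 1.43) on the log2 scale held 0. With 3 animals per group, true differences of a size within them remain possible.

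At 6 h after Beta-Ac compared to saline, 0.442% of all tested genes were called, and 0 of 5 members were, by edgeR or by DESeq2. By edgeR 11.5% of all tested genes and 0 members had an unadjusted p under 0.05. The log2 differences were 0.5 for ARC (95% interval from -0.16 to 1.16), 0.52 for JUNB (-0.54 to 1.58), 0.4 for FOSB (-2.16 to 2.97), 0.06 for NR4A1 (-1.26 to 1.38) and -0.29 for NPAS4 (-1.31 to 0.73). ARC was higher in replicates 2 and 3 than in every control and lower in replicate 1 than in 2 of the 3 controls.

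At 5 days after the clinical drug compared to saline, 0% of tested genes were called, so no member was, by edgeR or by DESeq2. By edgeR 4.39% of all tested genes and 2 members had an unadjusted p under 0.05. FOSB was 8.98-fold higher in the fit (95% interval from 1.5 to 53.7, edgeR q = 0.931) and JUNB was 2.15-fold higher (95% interval from 1.02 to 4.5, edgeR q = 0.931). JUNB did not overlap between these groups, as was the case for 12.3% of all tested genes. Without clinical 5 days replicate 1 the log2 differences were 2.24 for FOSB and 0.83 for JUNB, and neither had an unadjusted p under 0.05. NR4A1, whose log2 difference was 0.76 with all animals, was at -0.28 without that replicate.

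At 5 days after Beta-Ac compared to saline, 0.00567% of tested genes were called and 0 of 5 members, by edgeR or by DESeq2. By edgeR 6.42% of all tested genes and 0 members had an unadjusted p under 0.05. FOSB had the largest member difference, 1.49 on the log2 scale (95% interval from -1.03 to 4.01), and JUNB was at 0.29, NPAS4 at -0.13, ARC at -0.27 and NR4A1 at -0.37.

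The drugs were also set against each other. Between clinical 4 h and Beta-Ac 6 h, which differ in drug, dose and time, 6.74% of tested genes were called and 0 of 5 members, by edgeR or by DESeq2. By edgeR 20.7% of all tested genes and 0 members had an unadjusted p under 0.05. NR4A1 (-1.03, 95% interval from -2.37 to 0.31) and JUNB (-0.71, from -1.77 to 0.35) had the lower means at clinical 4 h on the log2 scale, and NPAS4 (0.71, from -0.29 to 1.71) the higher. Between clinical and Beta-Ac at 5 days 0% of tested genes were called, and 0 of 5 members were called by edgeR or by DESeq2 or had an unadjusted p under 0.05. Of all tested genes 3.15% had such a p. FOSB (1.68), NR4A1 (1.14) and JUNB (0.81) had the higher means after the clinical drug, and all 3 intervals held 0 (from -0.66 to 4.03, from -0.19 to 2.47 and from -0.25 to 1.87).

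Between 4 h and 5 days after the clinical drug, 10.4% of all tested lung genes and 4 of 5 members were called, by edgeR and by DESeq2. FOSB averaged 0.801 CPM at 4 h and 10.2 CPM at 5 days (log2 difference -3.45, SE 1.2, edgeR q = 0.0581), NR4A1 35.9 and 119 CPM (-1.73, SE 0.63, q = 0.0691) and JUNB 124 and 305 CPM (-1.3, SE 0.5, q = 0.0811). ARC averaged 70.9 and 38.6 CPM (0.88, SE 0.31, q = 0.0602), and NPAS4 did not pass (0.23, SE 0.46, q = 0.5). The groups did not overlap for JUNB and ARC, as for 29.1% of all tested genes, and overlapped for FOSB and NR4A1. The median log2 difference of all tested genes was 0.

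These 4 calls rested on few animals. Leaving out clinical 5 days replicate 1 or clinical 4 h replicate 2 left 0 of 5 members called, leaving out clinical 4 h replicate 3 left 1 and clinical 5 days replicate 2 left 2. Without clinical 5 days replicate 1 the log2 difference of NR4A1 went from -1.73 to -0.69, and those of FOSB, JUNB and ARC were -2.56, -1.02 and 0.8. With Benjamini-Hochberg in place of Storey's q, 2 members, FOSB and ARC, were called. The lung markers summed to between 11800 and 17800 CPM at 4 h and between 8000 and 11000 CPM at 5 days after the clinical drug, with no overlap, and heat shock genes to between 1770 and 1820 CPM and between 1570 and 2170 CPM. The part of either in these differences was not tested.

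Between 6 h and 5 days after Beta-Ac, 0.261% of tested genes and 0 of 5 members were called, by edgeR or by DESeq2. By edgeR 7.91% of all tested genes and 1 member had an unadjusted p under 0.05. ARC was 1.7-fold higher at 6 h (95% interval from 1.08 to 2.69, edgeR q = 0.478), with means of 62.7 and 36.8 CPM and overlapping animals. FOSB was at -1.08 on the log2 scale (from -3.5 to 1.33), NR4A1 at 0.43 (from -0.89 to 1.75) and JUNB at 0.22 (from -0.83 to 1.28).

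Whether the change from early to 5 days differed between the drugs was tested as a difference of differences, a contrast added after seeing the data that also holds the change from 4 h to 6 h and from 0.25 to 0.125 mg/kg. Over all tested genes 2.36% were called, and 0 of 5 members were by edgeR, with 2 at an unadjusted p under 0.05, NR4A1 and JUNB. The share of all tested genes at such a p was not counted for this contrast. NR4A1 differed by -2.16 on the log2 scale (SE 0.88, edgeR q = 0.21), JUNB by -1.52 (SE 0.7, q = 0.251) and FOSB by -2.37 (SE 1.6, q = 0.389). For ARC it was 0.11 (SE 0.43) and for NPAS4 0.39 (SE 0.65).

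**Figure D2:**
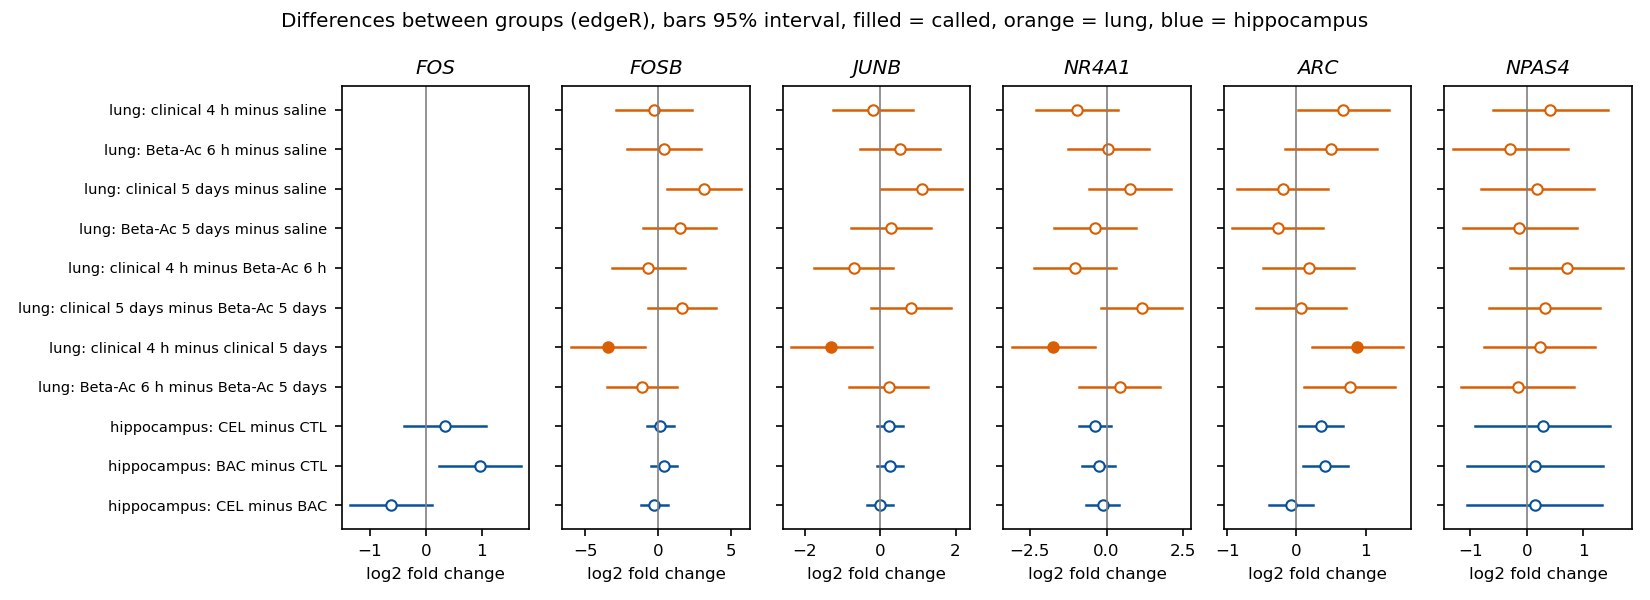
Log2 fold change of each member in 8 lung comparisons (orange) and 3 hippocampus comparisons (blue), as the first group minus the second, with 95% intervals from the edgeR fit. Filled points passed all thresholds, and these are FOSB, JUNB, NR4A1 and ARC between 4 h and 5 days after the clinical drug, while FOS has no lung value.

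Other genes of the same response were taken from lists. Of 13 tested early transcription factors that are not members, 4 rose and 1 fell by edgeR between saline and 4 h after the clinical drug. DESeq2 called 4 of the 13 there. EdgeR called 7.4% of all tested genes in that comparison. The list median was 0.07 and the all-gene median 0.02 on the log2 scale. CSRNP1 rose from 31.3 to 78.6 CPM (log2 1.33), FOSL2, an AP-1 subunit, from 55.8 to 120 CPM (1.11) and KLF6 from 48.7 to 97.5 CPM (1), while FOSL1, also an AP-1 subunit, fell from 0.545 to 0.124 CPM (-2.27). KLF2, which passed as well, rose from 24.5 to 41.8 CPM (0.77). At 6 h after Beta-Ac 2 of the 13 rose by edgeR, CSRNP1 (0.87) and KLF2 (0.86), while DESeq2 called 4. EdgeR called 0.442% of all tested genes there. At 5 days 0 of 13 were called against saline by edgeR or DESeq2. By edgeR 3 after the clinical drug and 2 after Beta-Ac had an unadjusted p under 0.05. Of all tested genes 4.39% and 6.42% had such a p. FOSL2 thus rose and FOSL1 fell at 4 h, while FOSB and JUNB had log2 differences of -0.29 and -0.19 that did not pass. The fall of FOSL1 rested on means near the limit of detection (SE 0.79, edgeR q = 0.0793).

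Between 4 h and 5 days after the clinical drug, 5 of these 13 factors were lower at 4 h and 3 were higher, beside 10.4% of all tested genes called. NR4A2 and NR4A3, the receptors closest to NR4A1, were lower at 4 h (9.19 against 28.7 CPM, log2 -1.65, and 1.33 against 3.97 CPM, -1.55), as were EGR2 (0.703 against 2.62 CPM, -1.87), IER5 (6.58 against 15.1 CPM, -1.2) and ATF3 (9.07 against 18.4 CPM, -1.02). EGR2, NR4A2, NR4A3 and IER5 were named by the size of their change and ATF3 after its value was seen. CSRNP1 (1.11), FOSL2 (1.09) and KLF6 (0.73) were higher at 4 h. The count of 5 at 4 h compared to saline was 3 without clinical 4 h replicate 1 or saline replicate 3. The count of 8 between 4 h and 5 days was 5 without clinical 4 h replicate 1 or 2, and also without clinical 5 days replicate 1 or 3. Between 6 h and 5 days after Beta-Ac edgeR called CSRNP1 (0.92) of these 13, beside 0.261% of all tested genes, and DESeq2 called 3. For edgeR leaving out each animal in turn gave between 0 and 4. The 2 called at 6 h compared to saline were between 1 and 4 in the same way, the highest without Beta-Ac 6 h replicate 2.

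Of 7 tested negative feedback genes, NFKBIA, the inhibitor of NF-kappaB, rose at 4 h after the clinical drug (124 to 395 CPM, log2 1.67) and at 6 h after Beta-Ac (to 246 CPM, 0.99). It was higher at 4 h than at 5 days (1.66), and higher at clinical 4 h than at Beta-Ac 6 h (0.69). In these comparisons in turn 7.4%, 0.442%, 10.4% and 6.74% of all tested genes were called. Its call at 6 h was lost when saline replicate 1, 2 or 3 or Beta-Ac 6 h replicate 3 was left out, and the last of these calls without Beta-Ac 6 h replicate 1. Among the secreted early genes, THBS1 (log2 1.21) rose and CCL2 (-2.22) fell at 4 h compared to saline, and THBS1 (1.15) rose at 6 h after Beta-Ac, where 0 of the list were called when saline replicate 1, 2 or 3 or Beta-Ac 6 h replicate 3 was left out, and 2 without Beta-Ac 6 h replicate 2 or by DESeq2. Between 4 h and 5 days after the clinical drug THBS1 (1.31) and CCN2 (0.7) were higher and CCL2 (-1.47) and CCN1 (-0.66) lower at 4 h, with CCN1 named after its value was seen, and the list's count was lower, at 3, without clinical 4 h replicate 3 or clinical 5 days replicate 1 or 2. CCL2 (-1.24) was also lower at clinical 4 h than at Beta-Ac 6 h, and there 0 of the list were called without clinical 4 h replicate 2 or Beta-Ac 6 h replicate 1 or 2, and 2 without clinical 4 h replicate 1 or Beta-Ac 6 h replicate 3.

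Of 13 tested upstream factors, ELK3, a partner of SRF, was lower at 4 h after the clinical drug than in saline (-0.72) and than at 5 days (-0.7), and MEF2A was higher at clinical 4 h than at Beta-Ac 6 h (0.59). Both ELK3 calls were lost without clinical 4 h replicate 2. Against saline, 5 days and Beta-Ac 6 h in turn, 7.4%, 10.4% and 6.74% of all tested genes were called at clinical 4 h. Of 7 tested late genes of neuronal activity, GADD45B rose (1.76) and PLK2 fell (-0.77) at 4 h compared to saline. GADD45B (1.7) and PLK2 (-0.8) differed likewise from 5 days, and PLK2 was lower than at Beta-Ac 6 h (-0.68), a call lost without Beta-Ac 6 h replicate 1. Of 5 tested glucocorticoid targets, FKBP5, ZBTB16, PER1 and CEBPD rose at 4 h, and FKBP5, ZBTB16 and PER1 rose at 6 h after Beta-Ac, where without saline replicate 1 the count was 1.

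**Figure D3:**
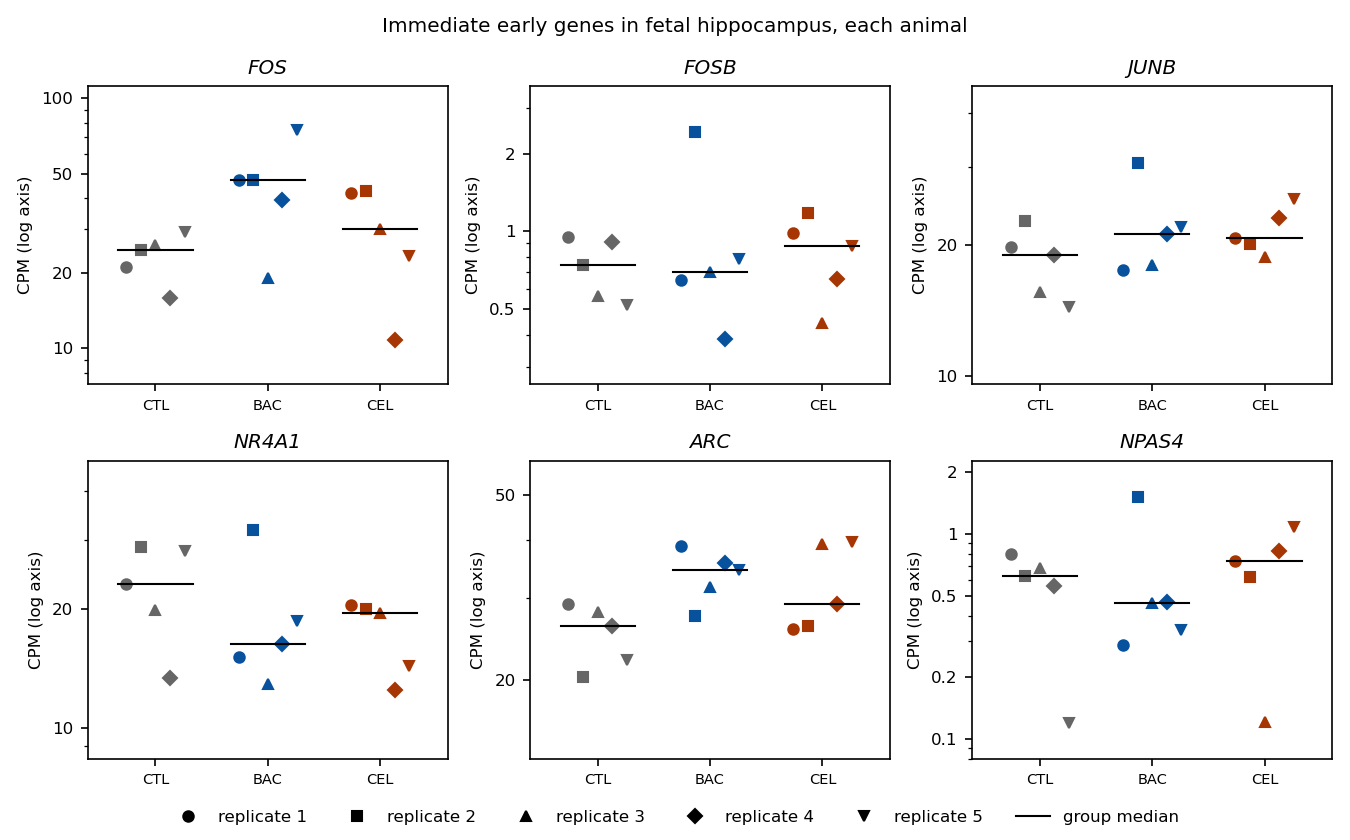
Level of the 6 immediate early genes found in hippocampus (CPM, log axis) in each of 15 fetuses, by group. Symbols mark replicates 1 to 5 of a group and lines group medians, BAC replicate 2 is the highest point for FOSB, JUNB, NR4A1 and NPAS4, and BAC replicate 5 is the highest for FOS.

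In hippocampus FOS, the AP-1 subunit most used to mark active neurons, was at 21.2, 24.8, 25.8, 15.9 and 29.1 CPM in CTL and at 47.3, 47.3, 19.2, 39.1 and 74.7 CPM in BAC. In CEL it was at 41.7, 42.6, 30, 10.8 and 23.4 CPM. In BAC 4 of 5 animals were above every CTL animal and 1 was below 4 of the 5 CTL animals, and CEL held the lowest FOS of all 15 animals.

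FOSB was low, with between 10 and 59 reads per library. It was at 0.951, 0.739, 0.561, 0.912 and 0.52 CPM in CTL, at 0.65, 2.43, 0.695, 0.386 and 0.78 CPM in BAC and at 0.983, 1.18, 0.445, 0.656 and 0.878 CPM in CEL. BAC held both the highest and the lowest animal. JUNB was at 19.7, 22.6, 15.6, 18.9 and 14.4 CPM in CTL, at 17.5, 30.7, 18, 21.1 and 21.9 CPM in BAC and at 20.7, 20.1, 18.7, 23 and 25.4 CPM in CEL, and all 3 groups overlapped.

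NR4A1 was at 23.2, 28.8, 19.9, 13.4 and 28.1 CPM in CTL, at 15.1, 31.9, 12.9, 16.3 and 18.7 CPM in BAC and at 20.5, 20.1, 19.6, 12.5 and 14.4 CPM in CEL. Its highest BAC animal, replicate 2, was also the highest of all. ARC was at 29.2, 20.3, 28, 26.1 and 22.1 CPM in CTL, at 38.9, 27.5, 31.8, 35.8 and 34.6 CPM in BAC and at 25.8, 26.1, 39.2, 29.2 and 39.6 CPM in CEL. For ARC 4 of 5 BAC animals were above every CTL animal. NPAS4 had between 3 and 37 reads per library, with 0.801, 0.622, 0.682, 0.555 and 0.12 CPM in CTL, 0.289, 1.52, 0.463, 0.464 and 0.339 CPM in BAC and 0.737, 0.618, 0.121, 0.831 and 1.08 CPM in CEL.

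Between CEL and CTL, 7.86% of all tested hippocampus genes were called and 0 of 6 members, by edgeR or by DESeq2. By edgeR 30.6% of all tested genes and 1 member had an unadjusted p under 0.05. ARC averaged 32 CPM in CEL and 25.1 CPM in CTL (log2 0.35, 95% interval from 0.03 to 0.67, edgeR adjusted p = 0.132). NR4A1 was at -0.38 (from -0.91 to 0.15), FOS at 0.34 (from -0.39 to 1.08), JUNB at 0.24 (from -0.1 to 0.59), NPAS4 at 0.28 (from -0.92 to 1.48) and FOSB at 0.16 (from -0.77 to 1.1).

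Between BAC and CTL, 0% of tested genes were called and so 0 of 6 members, by edgeR or by DESeq2. By edgeR 12.3% of all tested genes and 2 members had an unadjusted p under 0.05. FOS averaged 45.5 CPM in BAC and 23.4 CPM in CTL, a 1.95-fold difference (95% interval from 1.17 to 3.24, edgeR adjusted p = 0.294). ARC averaged 33.7 and 25.1 CPM, a 1.34-fold difference (95% interval from 1.08 to 1.67, edgeR adjusted p = 0.288). JUNB (0.26), FOSB (0.42), NPAS4 (0.14) and NR4A1 (-0.26) had log2 intervals that held 0. Without BAC replicate 2 the FOSB value was -0.22 and the NPAS4 value -0.51.

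Between CEL and BAC 0% of tested genes were called and 0 of 6 members by edgeR or by DESeq2. By edgeR 13.5% of all tested genes and 0 members had an unadjusted p under 0.05. FOS was at -0.62 on the log2 scale (95% interval from -1.35 to 0.11) and the other 5 members were between -0.26 and 0.14.

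Sequencing runs were unevenly spread over the hippocampus groups, since 3 of the 5 CTL libraries came from runs that held no BAC or CEL library. Run is what the labels name, and no extraction batch is given. With run as a covariate the log2 difference between BAC and CTL was 0.73 for FOS and 0.43 for ARC, and neither had an unadjusted p under 0.05. JUNB was then at 0.55 against CTL in BAC and at 0.53 in CEL, more than 1.5 times the values without run, both with an unadjusted p under 0.05, and no member was called by edgeR. In the 2 runs that held all 3 groups FOS was at 0.76, ARC at 0.45 and JUNB at 0.57 for BAC, with 2 CTL animals only. These were CTL replicates 3 and 5, and replicate 5 had the choroid plexus markers and the lowest JUNB of all hippocampi (14.4 CPM). Without CTL replicate 5, the library with choroid plexus markers, FOS was at 1.05 and ARC at 0.38 for BAC. Markers of hippocampal neurons summed to between 194 and 421 CPM in CTL, between 207 and 367 CPM in BAC and between 376 and 518 CPM in CEL, and their part in the member values was not tested.

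Among other lists in hippocampus, EGR2, of the same zinc finger family as EGR1 and EGR3, was the single one of 14 tested early transcription factors to rise in CEL compared to CTL (4.83 to 8.79 CPM, log2 0.86, edgeR adjusted p = 0.0652). The call was lost without CTL replicate 4 or 5, without CEL replicate 3, 4 or 5, and with run as a covariate. EdgeR called 7.86% of all tested genes between CEL and CTL. Among the upstream factors RPS6KA3 (-0.67), a kinase of the ERK pathway, fell in CEL. Of 9 negative feedback genes, 6 secreted early genes, 9 late genes of neuronal activity and 5 glucocorticoid targets, 0 were called there by edgeR or DESeq2. An unadjusted p under 0.05 was found for 3, 0, 2 and 1 of them, beside 30.6% of all tested genes. Between BAC and CTL, where edgeR called no gene at all, 0 of 14 early transcription factors and 4 of 13 upstream factors had an unadjusted p under 0.05. Over all tested genes that share was 12.3%.

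**Figure D4:**
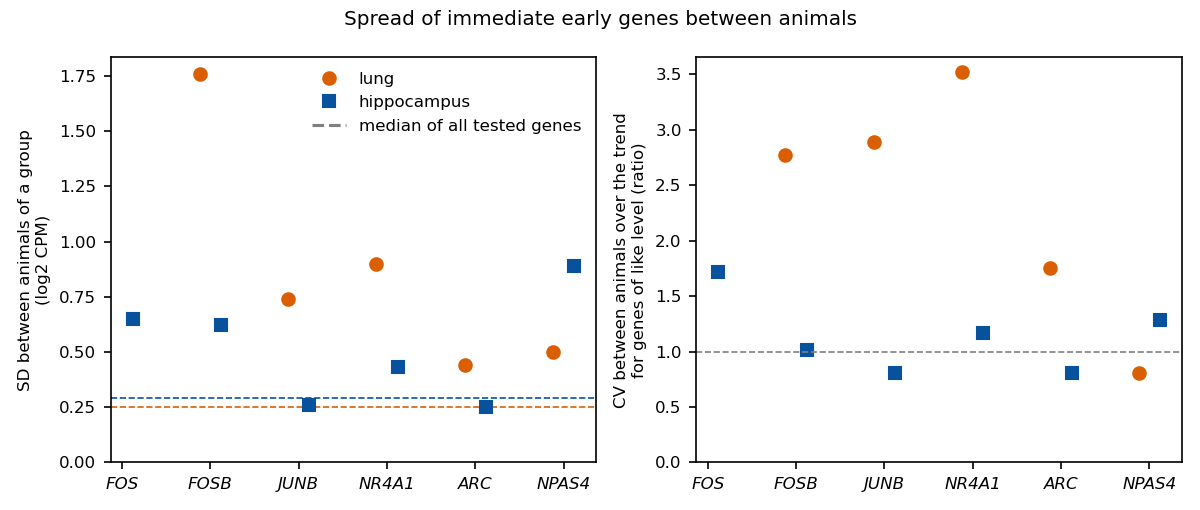
Spread of the members between animals, as the SD of log2 CPM within groups (left, dashed lines are the medians over all tested genes of each tissue) and as the coefficient of variation between animals divided by the trend for genes of like level (right, dashed line at 1). In lung NR4A1, JUNB and FOSB lie furthest above the trend, and in hippocampus FOS does.

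The spread between animals was large for several members. In lung the SD of log2 CPM within groups was 1.76 for FOSB, 0.9 for NR4A1, 0.74 for JUNB, 0.5 for NPAS4 and 0.44 for ARC, beside a median of 0.25 over all tested genes. FOSB was above 99.7% of the tested genes, NR4A1 above 94.4% and JUNB above 89.3%. Low counts raise such an SD, so the biological coefficient of variation that edgeR estimates was also set against its trend for genes of like level. NR4A1 was at 3.52 times its trend, JUNB at 2.89 times, FOSB at 2.77 times and ARC at 1.75 times, while NPAS4 was at 0.81 times. Within groups the highest lung animal exceeded the lowest by between 6.49 and 26.9 times for FOSB, by between 2.21 and 7.35 times for NR4A1 and by between 1.16 and 2.51 times for ARC.

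In hippocampus the SD was 0.89 for NPAS4, 0.65 for FOS, 0.62 for FOSB, 0.43 for NR4A1, 0.26 for JUNB and 0.25 for ARC, beside a median of 0.29. FOS was at 1.72 times the trend for its level, above 96% of the tested genes, and NPAS4 at 1.28 times, NR4A1 at 1.17 times and FOSB at 1.01 times. JUNB and ARC were at 0.81 times. CTL animals differed by 1.83 times in FOS, BAC animals by 3.89 times and CEL animals by 3.94 times, and whether the spread differed between groups was not tested.

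Members were then compared within animals after group means were removed, over 25 pairs of members in both tissues. Only pairs with FOS were planned, and the others, JUNB with NPAS4 among them, were added after seeing the data. In hippocampus, animals high in JUNB were high in NPAS4 (r = 0.75, permutation p = 0.00133, adjusted 0.0332, and rho = 0.75, permutation p = 0.00207, adjusted 0.0518, over 15 animals), and r was 0.69 without the 2 animals farthest in JUNB. This pair passed 0.05 after adjustment by r and not by rho. NPAS4 rested on between 3 and 37 reads per library. Its lowest values after group means were removed, in CEL replicate 3 (-1.686) and CTL replicate 5 (-1.492), rested on 3 reads each. Both animals were kept in the r of 0.69. CTL replicate 5 is the library with choroid plexus markers, and r without it was not computed. With the means of sequencing runs removed r was 0.76. None of the other pairs passed 0.05 after adjustment. The next were FOSB with JUNB in lung (r = 0.77, exact permutation p = 0.00579, adjusted 0.0724, and rho = 0.64, exact permutation p = 0.0307, adjusted 0.154) and FOS with NR4A1 in hippocampus (r = 0.65, permutation p = 0.0104, adjusted 0.0806, and rho = 0.62, permutation p = 0.0165, adjusted 0.154). Without the 2 farthest animals these were at r = 0.7 and r = 0.52. FOS with JUNB was at r = -0.05 in hippocampus, FOS with FOSB at 0.16, FOS with ARC at -0.13 and FOS with NPAS4 at -0.21, with permutation p-values between 0.472 and 0.859.

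**Figure D5:**
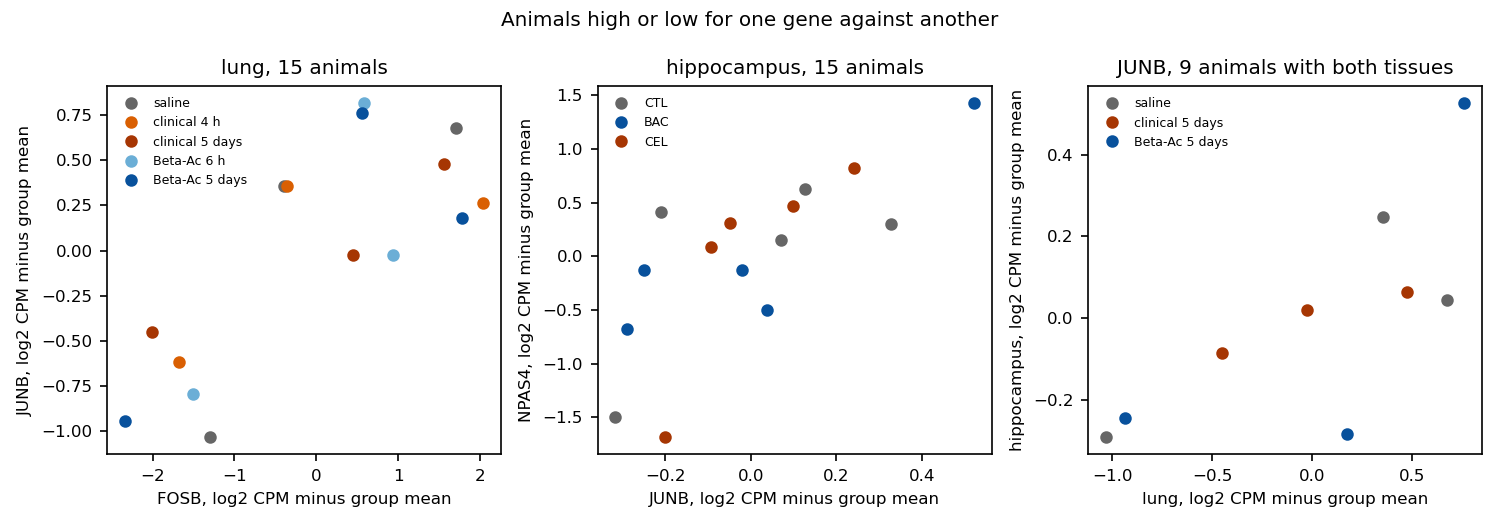
Log2 CPM minus the group mean of FOSB against JUNB in 15 lungs (left), of JUNB against NPAS4 in 15 hippocampi (middle) and of JUNB in lung against JUNB in hippocampus of the 9 fetuses with both tissues (right). Points are animals coloured by group, r is 0.77, 0.75 and 0.74, and only the middle relation passed 0.05 after adjustment, by r and not by Spearman's rho.

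In the 9 fetuses with both tissues, the level in lung was set against the level in hippocampus after group means were removed. JUNB had r = 0.74 (exact permutation p = 0.13, adjusted 0.65) and rho = 0.83 (exact permutation p = 0.0509, adjusted 0.254), and r was 0.6 without the 2 farthest animals. FOSB had r = 0.49, NR4A1 0.28, NPAS4 0.1 and ARC -0.04, and no gene passed. The smallest p that these permutations can give is 0.00463. BAC replicate 2, the highest hippocampus for JUNB at 30.7 CPM, was the Beta-Ac 5-day animal with the highest lung JUNB of its group at 264 CPM. Levels of the members themselves were not compared between the tissues, whose count tables were normalized apart and share 20572 identifiers only.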

How the data were processed

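Gene counts were deposited by the authors as raw reads per Ensembl gene, 1 table per tissue, not normalized. The study's methods name Bowtie 2 and the MMUL1.0 assembly for reads of 75 bases. The submitters' processing notes name Bowtie 1.2.1.1 and featureCounts 1.5.1 for lung and Bowtie2, featureCounts and edgeR for hippocampus. Symbols were matched for 52.1% of lung and 54.4% of hippocampus identifiers, and every sample column was matched.

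Genes with at least 7 reads in 3 lung or 5 hippocampus libraries were kept, TMM-normalized and tested with edgeR 4.0.16 (R 4.3.3, limma 3.58.1), with 8 lung and 3 hippocampus comparisons and no covariate. DESeq2 1.42.0 was an alternative, as were RLE scaling, other filters and adjustments, other fits and each animal left out in turn. Log2 CPM used a prior count of 2. Intervals are 95%. Correlations were planned for FOS, and all pairs were added after seeing the data, as was the contrast of both drugs. They used two-sided permutation within groups, exact in lung (7776) and with 100000 resamples in hippocampus. The scripts were tested on simulated data.

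The members and gene lists were chosen with earlier results of these data known. Named genes were all members, FKBP5, ZBTB16 and PER1, up to 4 called genes per list and comparison with the largest change, and per tissue the 5 genes most alike to the members. Some genes that this rule names are not reported here. Promoter motifs were not analysed here.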

Additional observations from a re-analysis of the deposited data

Results flagged for a closer look

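In BAC replicate 2, FOSB was at 2.43 CPM in hippocampus, with the next BAC animal at 0.78 CPM, and the gap was 0.807 of the group's range. In the same library NPAS4, the neuronal activity factor, was at 1.52 CPM, with the next animal at 0.464 CPM and a gap of 0.858 of the range. In both cases the animal stood further from the other 4 than Dixon's critical value of 0.71. The check covered 18 groups of hippocampus values, and chance singles out about 1 in 20 groups, or 0.9 here, against 2 found. It was made on CPM and not repeated on log2 CPM, where other animals may be singled out. Both genes were counted at low numbers of reads in that library, 59 for FOSB and 37 for NPAS4. JUNB (30.7 CPM) and NR4A1 (31.9 CPM) were also highest in this animal, without passing that value.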

How the results depend on the processing

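No paired analysis was possible because the groups of a tissue are different animals and the labels give them no shared replicate numbers.

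The 4 members called between 4 h and 5 days after the clinical drug were 2 with Benjamini-Hochberg adjustment and between 0 and 4 when an animal was left out, and at 4 h compared to saline the 0 called were between 0 and 1. The other 9 counts of members called were 0 in each leave-out. No member that was called changed sign in any setting. Of members' values 511 kept direction and call under other settings, 3 lost the call and 4 changed sign. With animals left out 814 kept both, 15 lost the call, 2 gained it and 39 changed sign. The cause of these changes was not tested.

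In the 3 hippocampus animals per group with a lung library, NPAS4 was at -0.53 for CEL against CTL and at -0.65 for CEL against BAC, where FOS and NR4A1 were at 0. The correlation of FOS with JUNB was 0.08 with run means removed.

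The following log2 differences crossed 0 when an animal was left out, and none was called with all animals. At 4 h after the clinical drug compared to saline, FOSB ranged from -2.46 to 1.23 and JUNB from -0.55 to 0.14. At 6 h after Beta-Ac compared to saline, FOSB ranged from -0.1 to 1.93, NR4A1 from -0.27 to 0.54 and NPAS4 from -0.61 to 0.17. At clinical 5 days compared to saline, NR4A1 ranged from -0.28 to 1.24, ARC from -0.44 to 0.21 and NPAS4 from -0.33 to 0.65. At Beta-Ac 5 days compared to saline, JUNB ranged from -0.14 to 0.64, NR4A1 from -0.76 to 0.1, ARC from -0.5 to 0.14 and NPAS4 from -0.33 to 0.34. Between the drugs, ARC ranged from -0.13 to 0.42 early and from -0.1 to 0.14 at 5 days, and NPAS4 from -0.2 to 0.58 at 5 days. Between early and 5 days, NPAS4 ranged from -0.03 to 0.75 for the clinical drug and from -0.49 to 0.04 for Beta-Ac, where JUNB ranged from -0.28 to 0.66. For BAC against CTL, FOSB ranged from -0.22 to 0.63 and NPAS4 from -0.51 to 0.33. For CEL against BAC, FOSB ranged from -0.46 to 0.39, JUNB from -0.09 to 0.14, NR4A1 from -0.23 to 0.15 and NPAS4 from -0.09 to 0.79.

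NPAS4 rested on between 3 and 37 reads per library over both tissues. FOSB rested on 1 read in its lowest lung and 10 reads in its lowest hippocampus. Groups were of 3 lungs and 5 hippocampi.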

Other observations

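Genes that respond to low oxygen and to heat, kinds of stress that can also induce immediate early genes, were counted as lists. Of 8 tested low oxygen genes, BNIP3 (log2 1.04) rose and EGLN3 (-0.88) fell at 4 h after the clinical drug compared to saline, with a list median of 0.3 beside 0.02 for all genes. Compared to 5 days after the clinical drug, BNIP3 (1.18) was higher and EGLN3 (-0.86) lower at 4 h, and compared to 6 h after Beta-Ac, BNIP3 (0.61) was higher and EGLN3 (-0.83) and PDK1 (-1.43) lower. The last of these counts, 3, was 0 without clinical 4 h replicate 2 and 1 without Beta-Ac 6 h replicate 3. The counts of 2 against saline and 5 days were both 1 without clinical 4 h replicate 2, the saline count was also 1 without saline replicate 3, and the 5-day count was 4 without Beta-Ac 6 h replicate 3. Of 6 tested heat shock genes, 0 were called in these 3 comparisons by edgeR or DESeq2. EdgeR called 7.4%, 10.4% and 6.74% of all tested genes against saline, 5 days and Beta-Ac 6 h. Against saline, 5 days and Beta-Ac 6 h in turn, 0, 0 and 3 heat shock genes had an unadjusted p under 0.05. So did 6, 3 and 3 of the 8 low oxygen genes, and 18.7%, 22.9% and 20.7% of all tested genes. At 6 h after Beta-Ac compared to saline, 0 genes of both lists were called. There 4 low oxygen genes, 2 heat shock genes and 11.5% of all tested genes had such a p. In hippocampus HSPE1, a mitochondrial chaperonin, rose (0.81) and PDK1, an inhibitor of pyruvate dehydrogenase, fell (-0.82) in CEL compared to CTL. The part of these genes in the members' values was not tested.

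The genes whose levels went most with the members over 15 lungs, by mean Pearson r after group means were removed, included NRBP2 (0.61), ZNF598 and CSNK1E (0.6) and MUS81 (0.59), beside a median of 0.01 over all tested genes. Over 15 hippocampi they were MYOC (0.45), GLRA4, PRSS22, ENPP6 and MARCHF11 (0.43), beside a median of 0. These genes were taken as the highest of all tested genes, so the values are a description.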
